A study of Mus musculus with 2 samples.

Results

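The proximal miRNA genes of the Dlk1-Dio3 domain reported here are Mir673, Mir493, Mir337, Mir540, Mir665, Mir431, Mir433, Mir127, Mir434 and Mir136. They were chosen by name and position from the imprinted miRNA genes of mouse chromosome 12 that lie around the gene Rtl1. They make up 10 of the 2202 miRNA genes in the tables. Other miRNA genes annotated there, such as Mir432 and Mir3070a, are counted below with the rest of the domain. Total RNA of hearts from B6CASTF1/J females aged 10 days was profiled by microRNA sequencing, and the strain is a first-generation cross of C57BL/6J with CAST/EiJ. There was 1 group of 2 hearts, with no treatment named, with 1 library and 1 biosample each, called replicate 1 and replicate 2. The same donor record stands under both. The labels give no second condition, so the data describe levels in this tissue and the spread between the hearts. Counts are not split by allele.

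The Dlk1-Dio3 domain is imprinted. The protein-coding genes Dlk1, Rtl1 and Dio3 are expressed from the paternal chromosome, while the long non-coding RNAs Meg3, Rian and Mirg and the miRNAs are made from the maternal one. Rtl1 derives from a retrotransposon and is required in the mouse placenta and fetal muscle. Several of the proximal miRNAs are read from the strand opposite Rtl1, so they pair perfectly with its mRNA and are known to direct its cleavage in the mouse.

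In the GENCODE M21 annotation of mm10, all 10 genes lie on the plus strand of chromosome 12, downstream of Meg3 (109541001 to 109571726) and upstream of Rian (109603940 to 109661716). Mir673 (ENSMUSG00000076316.1, chr12:109571990-109572080), Mir493 (ENSMUSG00000077025.2, chr12:109580233-109580315), Mir337 (ENSMUSG00000065526.4, chr12:109585789-109585885), Mir540 (ENSMUSG00000072900.2, chr12:109586080-109586146) and Mir665 (ENSMUSG00000076313.1, chr12:109586314-109586407) overlap no longer annotated gene. Mir431 (ENSMUSG00000070080.1, chr12:109590447-109590537), Mir433 (ENSMUSG00000070072.1, chr12:109591715-109591838), Mir127 (ENSMUSG00000070076.2, chr12:109592846-109592915), Mir434 (ENSMUSG00000070133.1, chr12:109594506-109594599) and Mir136 (ENSMUSG00000104858.1, chr12:109595327-109595388) lie within Rtl1 (109589193 to 109600330, minus strand). All 5 of them stand opposite an Rtl1 exon and within its coding sequence, not its untranslated regions. The other 5 genes lie before Rtl1 in plus-strand order, which is past the 3′ end of Rtl1 itself. They are called upstream below in that plus-strand sense only. Mir337, Mir540 and Mir665 are the most closely spaced, with gaps of 194 and 167 nt between their hairpins.

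**Figure D1:**
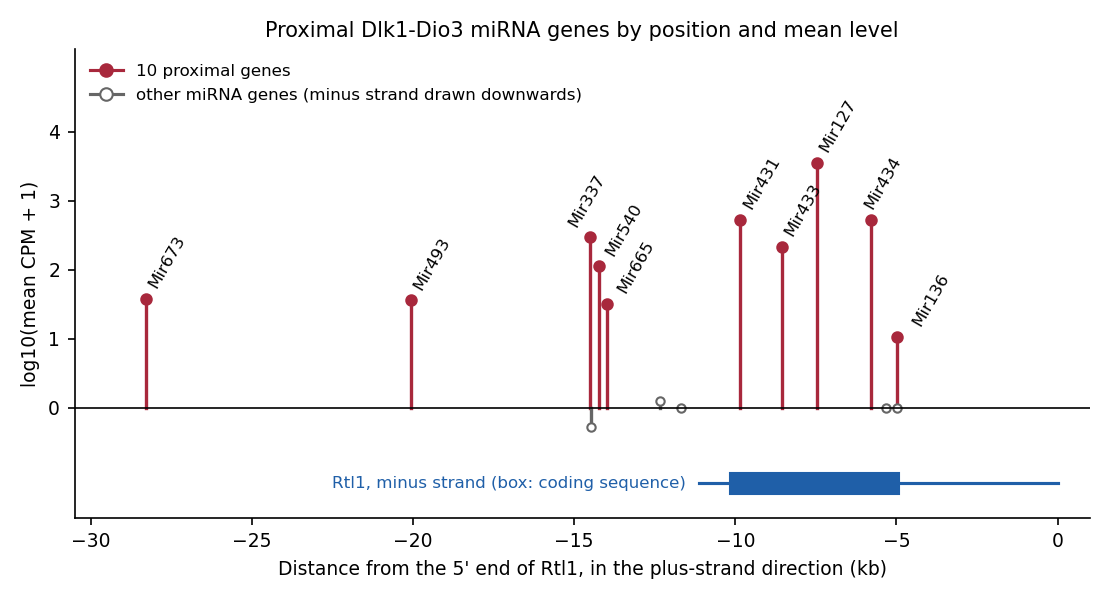
Position of the miRNA genes around Rtl1, as distance from the 5' end of Rtl1 in kb (x axis), against log10(mean CPM + 1) over the 2 hearts (y axis). The filled points are the 10 proximal genes and the open points the other annotated miRNA genes of the window, with minus-strand genes drawn downwards; Mir127 stands highest, at 3591 CPM, inside the Rtl1 coding sequence.

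The mature sequences below are those of the 5 leading genes and of the gene with the fewest counts, Mir136. They are RefSeq entries on GRCm38.p6, the assembly of mm10, written 5′ to 3′ with the seed (bases 2 to 8, which set most target pairing) in capitals. Both arms are shown because a count covers the whole hairpin gene and does not tell the arms apart.
miR-127-5p: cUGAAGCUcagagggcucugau
miR-127-3p: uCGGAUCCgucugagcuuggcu
miR-431-5p: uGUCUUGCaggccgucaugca
miR-431-3p: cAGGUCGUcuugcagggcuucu
miR-434-5p: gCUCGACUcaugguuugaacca
miR-434-3p: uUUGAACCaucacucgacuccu
miR-337-5p: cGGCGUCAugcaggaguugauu
miR-337-3p: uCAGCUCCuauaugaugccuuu
miR-433-5p: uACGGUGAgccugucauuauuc
miR-433-3p: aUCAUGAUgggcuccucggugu
miR-136-5p: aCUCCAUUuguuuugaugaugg
miR-136-3p: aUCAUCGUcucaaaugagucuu

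All 10 genes were matched in the RefSeq table, with 20 mature arms of 19 to 26 nt. The 20 arms carry 20 different seeds, so no seed is shared within the cluster. Outside it, the seed of miR-673-5p is shared with Mir6985 and that of miR-540-3p with Mir6915, and the other 18 seeds occur in no other gene among the 1738 mature entries of that table. By seed these genes are therefore not a family: they share a position, not a target-pairing sequence.

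For the 5 genes opposite Rtl1, the reverse complement of the whole hairpin was found in the Rtl1 mRNA, and each of the 10 mature arms had 1 fully complementary site there, inside the coding sequence. The sites for the genes with the most and the fewest counts among these are shown as mRNA letters, with the bases that face the seed in capitals. The first spans mRNA positions 2642 to 2663 and the second 199 to 220.
Rtl1 site of miR-127-3p: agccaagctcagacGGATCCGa
Rtl1 site of miR-136-5p: ccatcatcaaaacaAATGGAGt

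Among the 141767 M21 transcripts, no arm of a proximal gene was found in the transcript of another gene on its own strand. The reverse complement of arms occurred in Rtl1 for the 5 genes opposite it, and in 1 further gene each for Mir337 (Mir3544) and Mir136 (Mir3071). The longest run that a proximal hairpin shared with another miRNA hairpin of the tables was 14 nt, for Mir493, which is shorter than any mature arm. Reads placed at more than 1 position, 38.9% of all reads in replicate 1 and 38.0% in replicate 2, are kept out of the gene counts. Whether any of them came from these genes was not tested, since only annotated transcripts could be searched.

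Reads on named miRNA genes numbered 4260561 in replicate 1 and 4583025 in replicate 2, and the limit behind a gene at 0 (3 counts) was 0.704 and 0.655 CPM (counts on a gene scaled to the same total on named genes in each library). The 3 heart muscle miRNA genes Mir208a, Mir208b and Mir499 were all detected, at a summed 9644 and 6536 CPM. The skeletal muscle genes Mir206 and Mir133b, of a tissue that also expresses the Dlk1-Dio3 miRNAs, summed to 21.6 and 19.4 CPM. The 12 neuronal genes summed to 198 and 255 CPM, of which Mir128-1 alone had 152 in replicate 1 and 190 in replicate 2. Of the 12, 5 were detected and 5 were at 0 in both hearts, including all 3 genes of miR-124. The miR-124 genes are near-identical copies, whose reads can be placed at more than 1 position and then go uncounted. The same limit applies to any other listed gene whose mature sequence has copies, such as the Mir9 genes. Low counts of such genes therefore do not show that they are absent. Both erythroid genes were detected and summed to 268 and 750 CPM, while 3 of 3 white blood cell genes summed to 889 and 864 CPM and the liver gene Mir122 to 76.3 and 141 CPM. Their part in the levels below was not tested, and in whole tissue fewer cells of a type and less RNA per cell cannot be told apart.

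All 10 proximal genes were detected, here meaning 10 or more counts in both hearts, against 346 of all 2202 genes. Of the other annotated miRNA genes between the start of Meg3 and Rian, only Mir770 was detected. Detection is therefore not a trait of every miRNA gene there. Together the 10 genes had 25064 counts in replicate 1 and 22323 in replicate 2. As a share of the counts on named genes, the cluster took 0.588% in replicate 1, with an exact (Clopper-Pearson) 95% interval of 0.581 to 0.596. The share in replicate 2 was 0.487%, with an interval of 0.481 to 0.493, and the mean was 0.538% ± 0.0716 (SD, n = 2). Intervals cover counting error only. Sequences can also differ in ligation and mapping, so ratios between genes below are ratios of reads. Whether they hold for the amounts of RNA was not tested. The intervals of the hearts do not overlap.

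One gene held most of these reads. Mir127, whose miRNA is known for a role in the mouse placenta, had 16902 counts in replicate 1 and 14737 in replicate 2. These are 3967 and 3216 CPM, a mean of 3591 ± 531 CPM (SD, n = 2), and place it at rank 39 of all 2202 genes. It took 67.4% of the cluster's counts in replicate 1 and 66.0% in replicate 2. Its hairpin, with both mature arms in capitals, is the region over which these reads were counted.
Mir127 hairpin: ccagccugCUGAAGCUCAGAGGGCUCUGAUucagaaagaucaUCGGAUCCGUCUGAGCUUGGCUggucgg

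Outside the domain, the 3 genes with levels closest to those of Mir127 were Mir17 (4297 CPM in replicate 1 and 2960 in replicate 2), Mir674 (3480 and 3033) and Mir28a (3540 and 3758). Closeness was the Euclidean distance of log2(CPM + 1) over the 2 libraries, from 0.166 for Mir17 to 0.278 for Mir28a, which with 2 libraries is little more than a match in level.

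Of the other genes opposite Rtl1, Mir431 and Mir434 followed at a similar level. Mir431, which acts on muscle satellite cells in the mouse, had 2636 counts in replicate 1 and 2027 in replicate 2, or 530 ± 125 CPM. Mir434 had 2266 and 2368 counts, or 524 ± 10.7 CPM. The order of these genes differed between the hearts: Mir431 exceeded Mir434 by 1.16-fold in replicate 1, with an exact interval of 1.10 to 1.23, but stood at 0.856 times its level in replicate 2, with an interval of 0.806 to 0.909. Their ranges overlap, so they do not differ beyond the spread between hearts. Mir127 exceeded Mir431 by 6.41-fold in replicate 1 and 7.27-fold in replicate 2.

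Mir433, studied in rodents for cardiac fibrosis, had 1185 counts in replicate 1 and 679 in replicate 2, or 213 ± 91.9 CPM. Mir136, the gene nearest the 5′ end of Rtl1, had 53 and 32 counts, or 9.71 ± 3.86 CPM, the lowest level of the cluster. Mir434, whose hairpin ends 727 nt before that of Mir136, exceeded it by 42.8-fold in replicate 1, with an exact interval of 32.6 to 57.3, while the excess in replicate 2 was 74.0-fold, with an interval of 52.3 to 108. The proximal genes opposite the Rtl1 coding sequence thus spanned a 370-fold range of mean CPM. Mir432, which is not among the 10, lies on the same strand there and had 0 uniquely placed reads in both hearts.

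Of the genes upstream of Rtl1 in plus-strand order, Mir337 led with 1048 counts in replicate 1 and 1572 in replicate 2, or 294 ± 68.6 CPM. Mir540 had 485 and 493 counts, or 111 ± 4.43 CPM. Mir665, the third gene of this closely spaced set, had 151 and 120 counts, or 30.8 ± 6.55 CPM. Mir337 exceeded Mir540 by 2.16-fold in replicate 1 and 3.19-fold in replicate 2, and exceeded Mir665 by 6.94-fold and 13.1-fold, with exact intervals that did not overlap between the hearts.

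Mir673, the gene nearest Meg3, had 165 counts in replicate 1 and 162 in replicate 2, or 37.0 ± 2.39 CPM. Mir493, known in human colon cancer cells as an inhibitor of liver metastasis, had 173 and 133 counts, or 34.8 ± 8.19 CPM. In the order of levels, Mir493 differed neither from Mir673 above it nor from Mir665 below it beyond the spread between hearts. The 5 genes opposite Rtl1 took 91.9% of the cluster's counts in replicate 1 and 88.9% in replicate 2, and the 5 upstream genes took 8.07% and 11.1%. The median level was 524 CPM opposite Rtl1 and 37.0 CPM upstream, but Mir136 was below every upstream gene in both hearts.

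**Figure D2:**
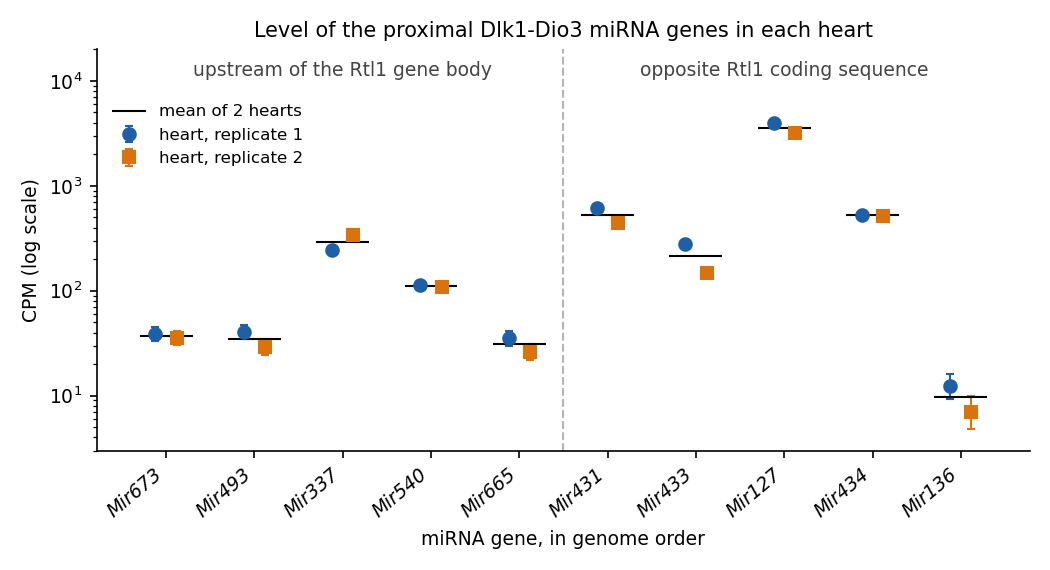
Level of each of the 10 genes in CPM on a log axis (y), in genome order (x), with replicate 1 as circles, replicate 2 as squares, exact 95% counting intervals as error bars and the mean of the 2 hearts as a line. Mir127 stands above the others at 3967 and 3216 CPM, and Mir136 lowest at 12.4 and 6.98 CPM.

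By mean CPM the order was Mir127, Mir431, Mir434, Mir337, Mir433, Mir540, Mir673, Mir493, Mir665 and Mir136. The values of both hearts were apart between neighbours at 5 of the 9 steps: below Mir127, Mir434, Mir433, Mir540 and Mir665. At the other 4 steps they overlapped. CPM count reads per gene, and hairpins span 62 to 124 nt although each read comes from a short insert. Per 100 nt of hairpin, 8 of the 10 genes kept their place, with Mir673 and Mir493 changing places. Across the 10 genes, log2(CPM + 1) of the hearts had Pearson's r 0.989 and Spearman's rho 0.964, a description of genes that share 2 libraries.

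Mir337 and Mir136 had counts on their own strand but none in the column that disregards strand. Mir337 overlaps the minus-strand gene Mir3544 over 61 nt, and Mir136 lies inside the minus-strand gene Mir3071, which covers all its 62 nt. On the gene strand, Mir337 had the 1048 and 1572 counts above and Mir136 the 53 and 32. In the column without strand both were at 0 in both hearts. This removed 4.39% of the cluster's reads in replicate 1 and 7.19% in replicate 2. The other 8 genes had the same count in both columns.

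The overlapping genes mirror each other in sequence, and the 3p arm of Mir337 and the 5p arm of Mir3544, shown here as an example, are complementary over 21 nt.
miR-337-3p: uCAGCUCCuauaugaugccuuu
miR-3544-5p: aGAAAGGCaucauauaggagcug

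On the opposite strand, Mir3544 had 5 counts in replicate 1 and 3 in replicate 2, and Mir3071 had 0 in both, which allows up to 3 counts in each library. At the other 8 genes, no read fell on the opposite strand in either heart. Rtl1 itself is not among the miRNA genes of the tables and was not analysed here.

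The hearts were compared gene by gene with an exact two-sided binomial test of counts, at a Benjamini-Hochberg adjusted p under 0.05 over the 375 genes whose counts summed to at least 20. It sets 2 libraries against counting noise and says nothing of conditions. Of the 10 proximal genes, 6 passed, 1 higher in replicate 2 and 5 higher in replicate 1. Over all genes tested, 55.2% passed, 26.1% higher in replicate 2 and 29.1% higher in replicate 1, so the count of 6 is near the background. At an unadjusted exact binomial p under 0.05, 7 of the 10 passed. The share of all genes at that threshold was not computed, so nothing is read from this count. None of the 10 passed and was also 2-fold or more apart, against 10.7% of all genes tested, which with so few genes is near that share.

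Mir433 had the ratio farthest from 0 in the cluster, although the wider interval of Mir136 reaches past it. Its level was 148 CPM in replicate 2 and 278 CPM in replicate 1, a log2 ratio of replicate 2 over replicate 1 of -0.84 (exact 95% interval -0.98 to -0.70, exact binomial adjusted p = 2.23e-34). Mir337 went the other way, with 343 CPM in replicate 2 and 246 CPM in replicate 1 (log2 ratio 0.55, interval 0.43 to 0.66, exact binomial adjusted p = 4.20e-21). It was the single gene of the 10 that passed with a higher level in replicate 2.

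Mir127 differed by a log2 ratio of -0.24 (interval -0.27 to -0.20) and Mir431 by -0.42 (-0.50 to -0.33). Mir493, at -0.42 (-0.76 to -0.08), and Mir136, at -0.76 (-1.45 to -0.11), also passed but rest on far fewer counts. The call of Mir136 was lost with DESeq2 size factors, which were 1 in both libraries and so left the counts unscaled. It was also lost without a filter on low counts. Mir665 did not pass, at -0.37 (exact binomial adjusted p = 0.0672), but passed when libraries were scaled to total counts. Mir434 (0.02), Mir540 (-0.02) and Mir673 (-0.07) did not pass. The interval of Mir434 was -0.06 to 0.11, the narrowest of these.

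**Figure D3:**
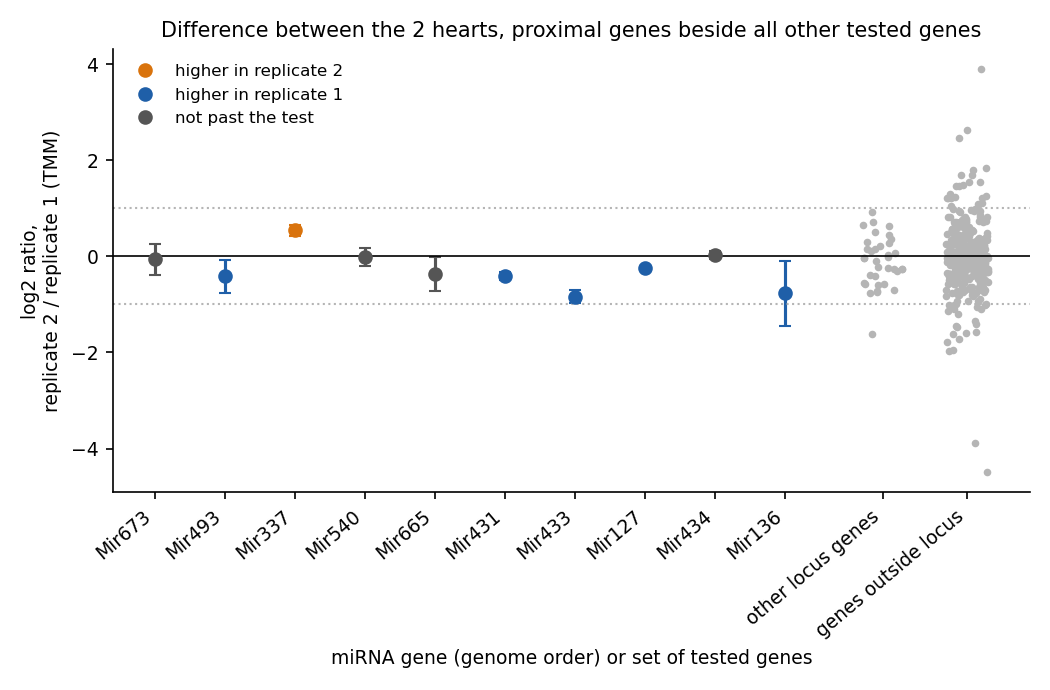
Log2 ratio of replicate 2 over replicate 1 (y axis) for each of the 10 genes, with exact 95% counting intervals, beside the other tested genes of the domain and the tested genes outside it, drawn as grey points (x axis). The points of all 10 genes lie between the dotted lines that mark a 2-fold difference, from -0.84 for Mir433 to 0.55 for Mir337.

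The median log2 ratio was -0.30 over the 10 genes, -0.07 over the 36 other tested genes of the domain and -0.02 over all 375 genes tested. The median was -0.42 over the 5 genes opposite Rtl1 and -0.07 over the 5 upstream. Opposite Rtl1, 4 of the 5 were higher in replicate 1 and none in replicate 2, and upstream 1 was higher in each, beside 29.1% and 26.1% of all genes tested, so nothing particular to either set is read from these few genes. The SD of the ratios was 0.41 over the cluster. Over the 198 genes outside the domain with summed counts in the cluster's range of 85 to 31639, it was 0.73, and 178 of them lay within 2-fold. Over the 32 other genes of the domain in that range, it was 0.53, and 31 of them lay within 2-fold. These differences between sets were not tested.

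**Figure D4:**
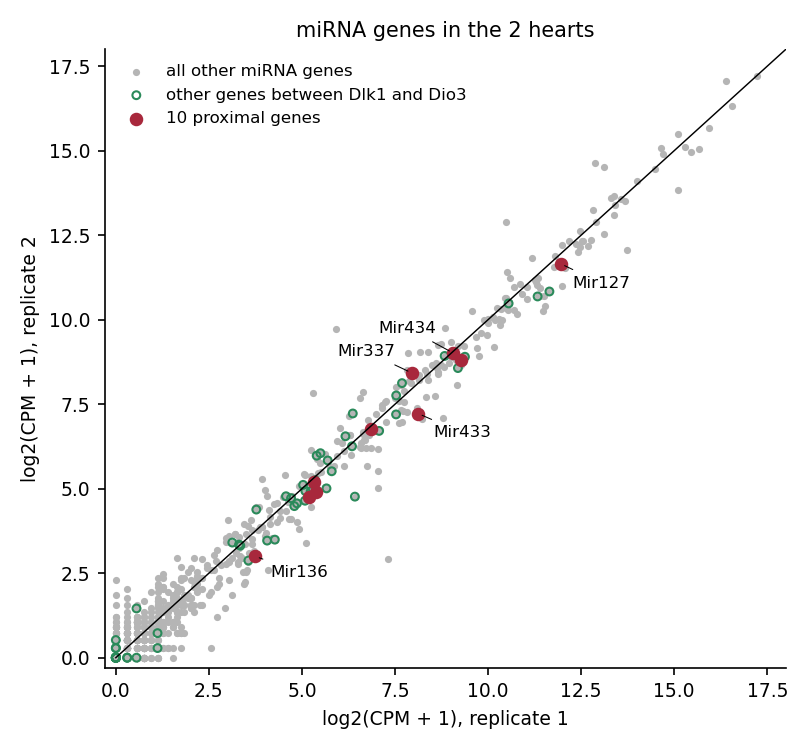
Level of every miRNA gene as log2(CPM + 1) in replicate 1 (x axis) and replicate 2 (y axis), with the 10 proximal genes filled, the other genes of the domain as rings and the line of equal level. The proximal genes run along the line from Mir136 to Mir127, with Mir433 below it and Mir337 above it.

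Within the domain, 67 genes of the tables lie between Dlk1 and Dio3. The 10 proximal genes took 35.6% of its counts in replicate 1, between exact bounds of 35.3 and 36.0. In replicate 2 they took 38.1%, between bounds of 37.7 and 38.5, giving a mean of 36.9% ± 1.72 (SD, n = 2). Of the other 57 genes, 36 were detected, all on the plus strand. The median level of the detected genes was 162 CPM for the proximal set and 45.0 CPM for the rest, beside 85.1 CPM over all 346 detected genes.

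The leading genes of the rest by mean CPM were Mir379 (2515), Mir411 (2110), Mir541 (1463), Mir487b (571) and Mir382 (481). Mir379 had 3207 CPM in replicate 1 and 1824 in replicate 2. Mir127 thus had the highest CPM of the domain in both hearts. Of the 36 other genes tested, 8 were higher in replicate 2, 10 were higher in replicate 1 and 18 did not pass. Mir379, at a log2 ratio of -0.75, and Mir411, at -0.58, were higher in replicate 1, as Mir127 was. Mir541 had a ratio of 0.00 and did not pass, but passed at -0.07 when libraries were scaled to total counts.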

How the data were processed

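MicroRNA-seq counts of 2 hearts (1 group, replicates 1 and 2) were analysed. Raw read counts were made by the authors on mm10 with GENCODE M21, per the file headers, as 1 table per library with 2202 miRNA genes and 4 category rows, in 3 columns (without strand, gene strand, opposite strand). Not given in the sources used here are the aligner and the counter. All IDs matched the annotation. The 10 genes and all lists were chosen with earlier results of these data known.

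The gene-strand column was used. CPM were computed over counts on named genes (39.5% and 44.9% of reads). Ratios used TMM factors (edgeR 4.0.16, R 4.3.3) and a prior count of 0.5. With 1 group no edgeR or DESeq2 test is possible. The exact binomial test ran on the 375 genes with summed counts of at least 20, and its script was first tested on simulated data. Alternatives included DESeq2 1.42.0 size factors, which came out at 1 for both libraries and so amount to unscaled counts. Named genes were the 10, opposite-strand genes, the 5 leading other domain genes, markers and the 3 genes nearest Mir127. Sequences came from RefSeq (GRCm38.p6) and M21 transcripts, and folding from RNAfold 2.7.2. The tests used scipy 1.17.1 and pandas 2.3.3 under Python 3.11.15, with numpy 2.4.6, and the plots matplotlib 3.10.9.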

Additional observations from a re-analysis of the deposited data

Results flagged for a closer look

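Opposite-strand reads at Mir337 numbered 5 in replicate 1, above the limit of 3 counts set for a gene at 0, and 3 in replicate 2. They are listed because 5 exceeds that limit and the levels above use the gene-strand column alone. The same 5 and 3 reads are the gene-strand counts of Mir3544.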

How the results depend on the processing

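No paired analysis was possible because a single group was sampled. With a 2-fold minimum, 40 of 375 genes passed between the hearts, against 207, and 0 of the 10, against 6 (7 at an unadjusted exact binomial p under 0.05). For the unadjusted count, the share over all genes was not computed. Under the other alternatives, between 4 of the 10 (without strand, where 186 of 350 genes tested passed) and 7 (total counts, 213 of 375) passed. Without strand, Mir337 and Mir136 had no counts and were not tested, so fewer than 10 could pass. The median log2 ratio of the 10, where tested, ran from -0.37 to -0.24. Their share of counts was 0.719% without strand, 0.226% over all reads and 0.635% without Mir378a, the most abundant gene; these change the denominator, or the reads counted. Their share of the domain stayed within 35.6% to 38.1%. In the order by level, 3 genes kept their place without strand, where Mir337 and Mir136 are at 0, 8 kept it per 100 nt of hairpin, and 6 to 8 did with 1 heart left out. With 2 hearts, leaving one out cannot move a mean by more than 1 SD. No ratio of the 10 genes or of the 5 leading other domain genes that was called in the main test changed sign under any alternative. Mir541, called with total counts alone at -0.07, stood at 0.03 with DESeq2 size factors. Depth limits Mir136, at 53 and 32 counts, most.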

Other observations

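Between the start of Meg3 and Rian the tables also list 7 other miRNA genes, Mir3544 and Mir3071 among them. Mir770, which lies within Meg3, had 135 counts in replicate 1 and 154 in replicate 2, or 31.7 and 33.6 CPM. Mir3070a had 2 counts and 0, while Mir3070b, Mir432 and Mir1906-1 had 0 uniquely placed reads in both hearts. Reads placed at more than 1 position are not counted, so these zeros set no limit on the level of genes with near-identical copies. Mir432 lies opposite the Rtl1 coding sequence between Mir434 and Mir136.

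Mir431 and Mir434 carry repeats within their hairpins: the longest run shared by the 5p and 3p arms was 10 nt in Mir431 and 9 nt in Mir434, against 3 to 6 nt in the other 8 genes. By RNAfold, the 10 hairpins had a median minimum free energy of -0.47 kcal/mol per nt, beside -0.37 over all 2202 hairpins and -0.41 over the other 57 of the domain. Their median GC content was 54.8%, beside 50.8% and 46.2%. These are descriptions of sequence, with no test.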
